A study of Homo sapiens with 15 samples.

Results

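Expression of 10 Krüppel-like factor (KLF) genes was followed in MDA-MB-231 cells, a triple-negative human breast cancer line, after RNA interference against the corepressor CtBP2 or treatment with CtBP inhibitors. The genes were KLF2, KLF3, KLF4, KLF5, KLF6, KLF8, KLF9, KLF10, KLF11 and KLF12, chosen by name, and 3 of them (KLF3, KLF8 and KLF12) encode proteins that bind CtBP. All 10 were on the arrays, with 16 of the 41000 probes and among 30992 genes. Cells with stable RNA interference of CtBP2 (shCtBP2), cells given HIPP and cells given P4 were each measured on 5 Agilent 2-colour whole-genome arrays, every array being 1 biological replicate. HIPP and P4 are CtBP inhibitors built on a phenylpropanoate, HIPP with a hydroxyimino group and P4 with a hydrazone group. The labels give a collection time of 24 h. On every array RNA of the treated cells carried Cy5 and RNA of control cells carried Cy3, and a log2 ratio is treated over control throughout. The labels name untreated MDA-MB-231 cells as the control of all 15 arrays, whereas the study's text sets shCtBP2 cells against cells with a scrambled hairpin. The shCtBP2 cells were selected with puromycin after transfection, which the untreated cells of the labels were not. Dyes were never exchanged, so within any 1 treatment a dye effect of a probe and an effect of the treatment cannot be told apart.

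KLF proteins are transcription factors that bind CACCC and GC-rich promoter boxes through tandem zinc fingers near the C terminus. Their N-terminal parts differ and decide which cofactors are recruited. KLF3, KLF8 and KLF12 carry a short motif bound by CtBP1 and CtBP2, NADH-sensing corepressors that bring histone-modifying enzymes to DNA. KLF9, KLF10 and KLF11 recruit the Sin3 corepressor instead, and KLF10 and KLF11 are known as genes induced by TGF-beta. KLF2, KLF4, KLF5 and KLF6 mostly act as activators, with roles in quiescence, reprogramming, proliferation and tumour suppression. Family members regulate each other's genes, and KLF8 is a known target of KLF3.

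The KLF8 gene had the largest ratio of the 10, and the sequence upstream of its start sites is shown with the motif that KLF proteins recognise. RefSeq lists 4 KLF8 starts on assembly GRCh38.p14 in 2 clusters, and the 250 bases before the first start of each cluster are given 5′ to 3′ on the plus strand, in lower case with each CACCC in capitals. The first is chrX:55907873-55908122 and the second chrX:56232106-56232355.
KLF8 first cluster: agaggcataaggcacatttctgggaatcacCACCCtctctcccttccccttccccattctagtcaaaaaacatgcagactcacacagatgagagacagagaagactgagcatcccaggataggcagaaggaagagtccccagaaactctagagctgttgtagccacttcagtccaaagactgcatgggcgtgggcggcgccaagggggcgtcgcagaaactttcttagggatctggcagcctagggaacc
KLF8 second cluster: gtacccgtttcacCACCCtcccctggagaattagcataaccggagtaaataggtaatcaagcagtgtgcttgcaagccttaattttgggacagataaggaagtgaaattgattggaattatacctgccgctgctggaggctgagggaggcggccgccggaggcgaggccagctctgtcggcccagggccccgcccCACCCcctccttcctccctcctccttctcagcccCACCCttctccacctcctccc
The first window held 1 match to CACCC on either strand (GGGTG on the other) and the second held 3. The windows before the other start of each cluster, not shown, held 2 and 0. A match occurred in 54.7% of all 35116 promoter windows of this length in the RefSeq table, 2 or more in 23.1% and 3 or more in 8.56%. Of the 8 members with an entry, the window before the most upstream start held a match for KLF5 and KLF8. The match is a description of the letters and not a measured binding site.

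The zinc fingers are alike across the family, and the array carries probes in that part of some members. The KLF3 probe and 1 of the 3 KLF6 probes are given with the bases in capitals that are identical in the best ungapped alignment.
KLF3 probe: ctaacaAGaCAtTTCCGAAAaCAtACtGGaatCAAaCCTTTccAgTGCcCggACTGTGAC
KLF6 probe: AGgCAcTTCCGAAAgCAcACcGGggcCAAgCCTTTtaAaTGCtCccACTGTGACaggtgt
They matched at 39 of 54 overlapping bases (72.2%). On genome build hg17 of the array design, the KLF3 probe lies at chr4:38521331-38521390, and the KLF6 probe spans chr10:3811779-3812353, an interval longer than the 60 bases of the probe.

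Well-measured spots made up 65.2% to 77.5% of the treated channel and 64.9% to 81.0% of the control channel (those the scanner software calls well above background), and none was saturated. The 15 arrays came from 4 slides. Replicates 1 to 4 of P4 shared slide 1, and replicate 5 of P4 was on slide 2 together with replicates 1 to 3 of HIPP. The remaining HIPP arrays shared slide 3 with replicates 1 and 2 of shCtBP2, and replicates 3 to 5 of shCtBP2 were on slide 4. Log2 ratios of arrays of 1 treatment correlated over genes with r from 0.30 to 0.57 for shCtBP2 and 0.42 to 0.75 for HIPP. For P4 the pair of replicates 1 and 3 had r = 0.012 and the other 9 pairs 0.34 to 0.70. Of the markers of this line, VIM, CD44, FN1 and ZEB1 were well above background on all 15 arrays in both channels, and CDH1 (E-cadherin, known to be silent in these cells) on none. EPCAM, GATA3, KRT8 and KRT18 were also above background on all 15 arrays, and ESR1 (the oestrogen receptor), with at least 1 of its 3 probes, on 12 in the treated and 11 in the control channel. In bulk RNA, fewer cells with a transcript and less transcript per cell cannot be told apart.

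The targeted gene was examined first. CTBP2 had log2 ratios of -0.36, -0.35, -0.59, -0.44 and -0.29 on the 5 shCtBP2 arrays, a mean of -0.41 ± 0.11 (SD, n = 5) or 75.4% of control. All 5 arrays were below control, but the limma adjusted p of 0.0595 missed the threshold of 0.05 and the change stayed under 1.5-fold. The adjusted p lay on both sides of 0.05 over the other settings, from 0.0153 with the treatment fitted alone to 0.496 on uncorrected mean signals, and CTBP2 was called in none of them. Cells given HIPP had a CTBP2 ratio of 0.57 ± 0.36 (SD, n = 5), above control on all 5 arrays. This passed the adjusted threshold (limma adjusted p = 0.00256) but not the fold threshold used for HIPP. With P4 it was 0.17 ± 0.35 (SD, n = 5, limma adjusted p = 0.344). Fitted singly, the 2 CTBP2 probes went apart with P4, at 0.53 (limma adjusted p = 0.0446) and -0.19 (limma adjusted p = 0.145). In shCtBP2 cells the same probes were at -0.42 (limma adjusted p = 0.152) and -0.39 (limma adjusted p = 0.0171). CTBP1 was at 0.29 ± 0.13 (SD, n = 5, limma adjusted p = 0.212) in shCtBP2 cells.

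Genes were called where the limma adjusted p was under 0.05 and the mean fold change reached the threshold of the study, 1.5 for shCtBP2, 2.5 for HIPP and 1.8 for P4. In shCtBP2 cells 3 of 10 members were called, against 6.57% of all 27582 genes tested. KLF8 and KLF9 were higher, where 3.34% of all genes were called higher, and KLF10 was lower, where 3.23% were. With HIPP 1 of 10 was called (KLF11, higher), against 7.05% of all genes (3.43% higher and 3.61% lower). With P4 2 members were called (KLF8 and KLF11, both higher), against 8.46% (4.29% higher and 4.17% lower), and KLF5 and KLF6 were not tested because the low-variability filter removed them. At the adjusted threshold alone 4, 3 and 5 members passed for shCtBP2, HIPP and P4, where 13.5%, 48.7% and 31.9% of all genes did. Of all genes, 6.59% passed higher and 6.95% lower for shCtBP2, 24.9% and 23.9% for HIPP, and 17.1% and 14.8% for P4. The members passing were KLF8 and KLF9 (higher) and KLF3 and KLF10 (lower) in shCtBP2 cells, KLF3, KLF6 and KLF11 (all higher) with HIPP, and KLF2, KLF3, KLF8 and KLF11 (higher) and KLF4 (lower) with P4. The median absolute log2 ratio of the 10 members, tested or not, was 0.24, 0.29 and 0.42 in the 3 treatments, beside 0.22, 0.45 and 0.35 over all genes tested.

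**Figure D1:**
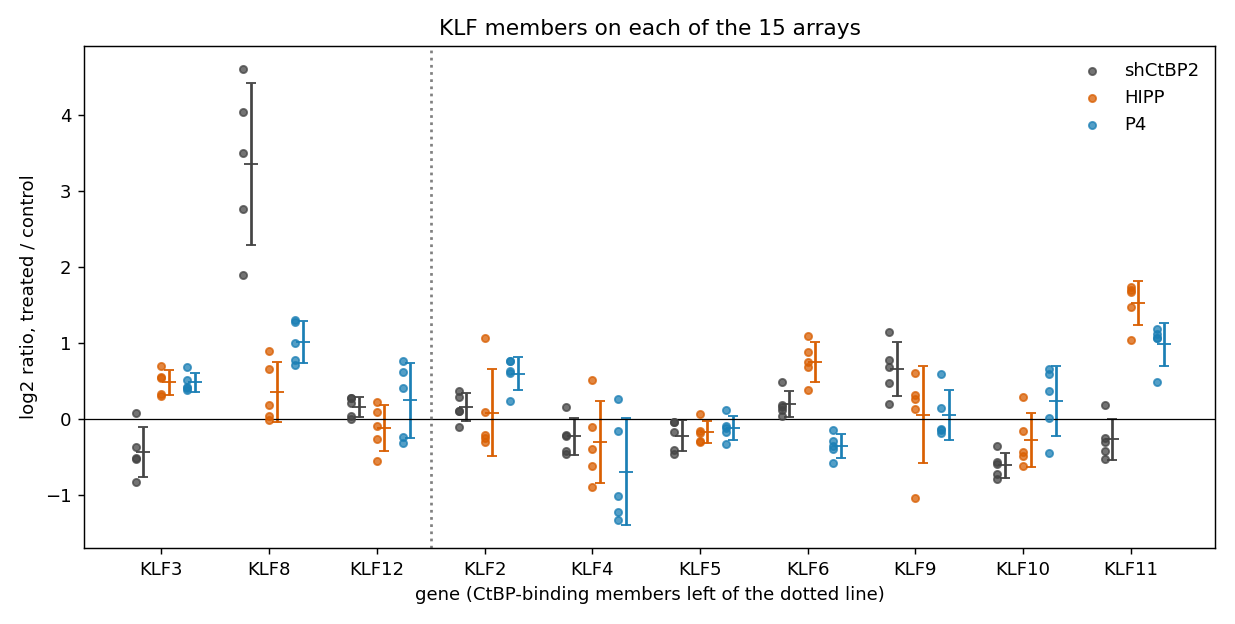
Log2 ratio of treated over control (y axis) for each of the 10 KLF genes (x axis), with 1 point per array and a bar for the mean ± SD of 5 arrays in shCtBP2, HIPP and P4. KLF8 in shCtBP2 cells lies between 1.90 and 4.61, above every other value, and KLF11 is above 0 on all 10 inhibitor arrays.

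KLF8, a repressor linked to epithelial-mesenchymal transition, rose in shCtBP2 cells. Its log2 ratios were 1.90, 2.77, 3.50, 4.04 and 4.61 in replicates 1 to 5, a mean of 3.36 ± 1.07 (SD, n = 5, limma adjusted p = 3.03e-06). All 5 arrays were higher than control, and the lowest of them exceeded every KLF8 ratio with HIPP or P4. The single KLF8 probe (hg17 chrX:56194460-56194519) was dim. Its treated signal was 93.4, 87.5, 58.6, 85.3 and 96.3 in the 5 replicates and well above background on all 5 arrays. Its control signal was 25.1, 12.8, 5.17, 5.20 and 3.94, and well above background in replicate 1 only, so the mean is not given as a fold change. The treated signals varied less between arrays, while the control signals, and with them the size of the ratio, differed by slide, with replicates 1 and 2 on slide 3 and replicates 3 to 5 on slide 4.

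How much KLF8 rose depended on how the dim control signal was handled, while it stayed above control in every setting tried. With normexp correction and loess normalization the log2 ratio was 0.90 (limma adjusted p = 0.000762), a value that includes an offset of 50 added to both channels, and with uncorrected mean signals 0.84, where the median of all genes was -0.20. With slide as a fixed block it was 2.74 (limma adjusted p = 0.00145). On the 2 arrays of slide 3 alone it was 2.33, and the call was lost (limma adjusted p = 0.0534).

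With P4, KLF8 log2 ratios were 1.00, 1.31, 1.28, 0.71 and 0.77, a mean of 1.01 ± 0.28 (SD, n = 5, limma adjusted p = 0.0129). All 5 arrays were higher than control. The signals behind them were low, from 7.43 to 54.4 in the treated channel (well above background on 3 of 5 arrays) and from 3.00 to 31.8 in the control channel (2 of 5), and no fold is given. In replicate 2, which had the highest ratio, neither channel was well above background and the scanner software had put a substitute value in place of the control signal. The call was lost with normexp and loess (log2 ratio 0.21, limma adjusted p = 0.248) and with the methods' t-test (adjusted p = 0.477), and the ratio was -0.10 on uncorrected mean signals, where the median of all genes was -0.25. With HIPP the KLF8 ratios were -0.0043, 0.67, 0.19, 0.90 and 0.05, a mean of 0.36 ± 0.40 (SD, n = 5, limma adjusted p = 0.300), which missed the threshold.

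**Figure D2:**
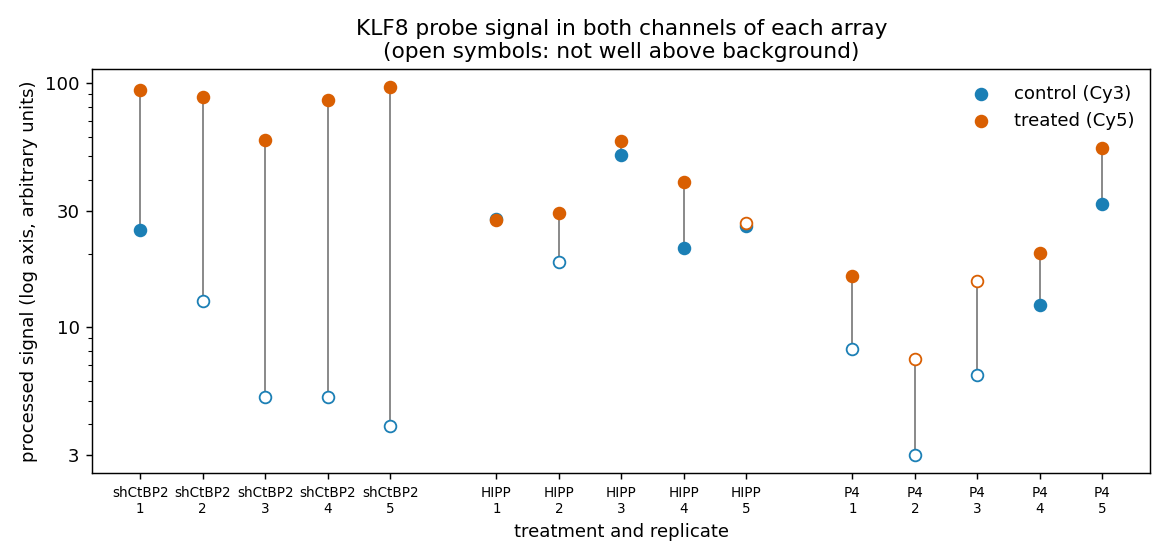
Processed signal of the KLF8 probe (y axis, log scale, arbitrary units) in the treated and control channel of each of the 15 arrays (x axis), joined by a line, with open symbols where the signal was not well above background. On the shCtBP2 arrays the treated signals stay between 58.6 and 96.3 and the control signals run from 25.1 down to 3.94.

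KLF3, the CtBP-binding repressor first described as basic KLF, was lower than control in shCtBP2 cells and higher with the inhibitors. In shCtBP2 cells its log2 ratios were -0.37, -0.83, -0.51, 0.08 and -0.53, a mean of -0.43 ± 0.33 (SD, n = 5, limma adjusted p = 0.0173), with 4 of 5 arrays lower. With HIPP they were 0.55, 0.31, 0.33, 0.54 and 0.70, a mean of 0.49 ± 0.16 (SD, n = 5, limma adjusted p = 0.00186). With P4 they were 0.39, 0.69, 0.51, 0.41 and 0.43, a mean of 0.49 ± 0.12 (SD, n = 5, limma adjusted p = 0.00382). All 10 inhibitor arrays lay above the 5 shCtBP2 arrays, and every mean passed the adjusted threshold while staying under the fold threshold of its treatment. The probe was dim, with signals from 13.1 to 92.3 in the treated channel, but well above background in both channels on all 15 arrays. With normexp and loess the ratios shrank to -0.06 (limma adjusted p = 0.496), 0.16 (0.0143) and 0.17 (0.0140), so that the fall in shCtBP2 cells no longer passed. Nor did it pass without replicate 2, 3 or 5 (limma adjusted p = 0.0896, 0.0568 and 0.0636), with slide as a fixed block (0.0607), on slide 3 alone (0.172), with the treatment fitted alone (0.0687) or with the methods' t-test (adjusted p = 0.509). On uncorrected mean signals the HIPP and P4 ratios of KLF3 turned to -0.19 and -0.05, where the medians of all genes were -0.40 and -0.25, and so remained above those medians by 0.20 and 0.20.

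KLF12, a repressor of the AP-2alpha gene, did not pass the threshold in any treatment when its 2 probes were averaged. The means were 0.16 ± 0.13, -0.12 ± 0.30 and 0.25 ± 0.50 (SD, n = 5 each) for shCtBP2, HIPP and P4, with limma adjusted p of 0.526, 0.538 and 0.213. With HIPP these averages hid probes that moved apart. The probe nearer the 3′ end (hg17 chr13:73158334-73158393) had log2 ratios of -1.14, -1.09, -1.38, -0.80 and -1.30, a mean of -1.14 ± 0.22 (SD, n = 5, limma adjusted p = 2.33e-07). The other probe (chr13:73285061-73285120), which starts 126.727 kb away and was designed on a different KLF12 transcript, gave 0.62, 0.91, 0.29, 1.24 and 1.48, a mean of 0.91 ± 0.48 (SD, n = 5, limma adjusted p = 0.00511). Both probes were well above background on every array, and their HIPP ratios did not overlap. The 2 probes lie in different parts of the gene, and neither reached the fold threshold of 2.5. Why they moved apart was not tested.

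The 2 KLF12 probes were closer in shCtBP2 cells, with means of 0.20 ± 0.12 for the probe nearer the 3′ end and 0.13 ± 0.29 for the other (SD, n = 5 each). With P4 the probe nearer the 3′ end was at -0.13 ± 0.19 (SD, n = 5) and the other probe at 1.496, -0.18, -0.29, 0.93 and 1.18 in replicates 1 to 5. Thus P4 replicates 2 and 3 stood below 0 and replicates 1, 4 and 5 well above it, and the limma adjusted p of this probe was 0.0546.

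**Figure D3:**
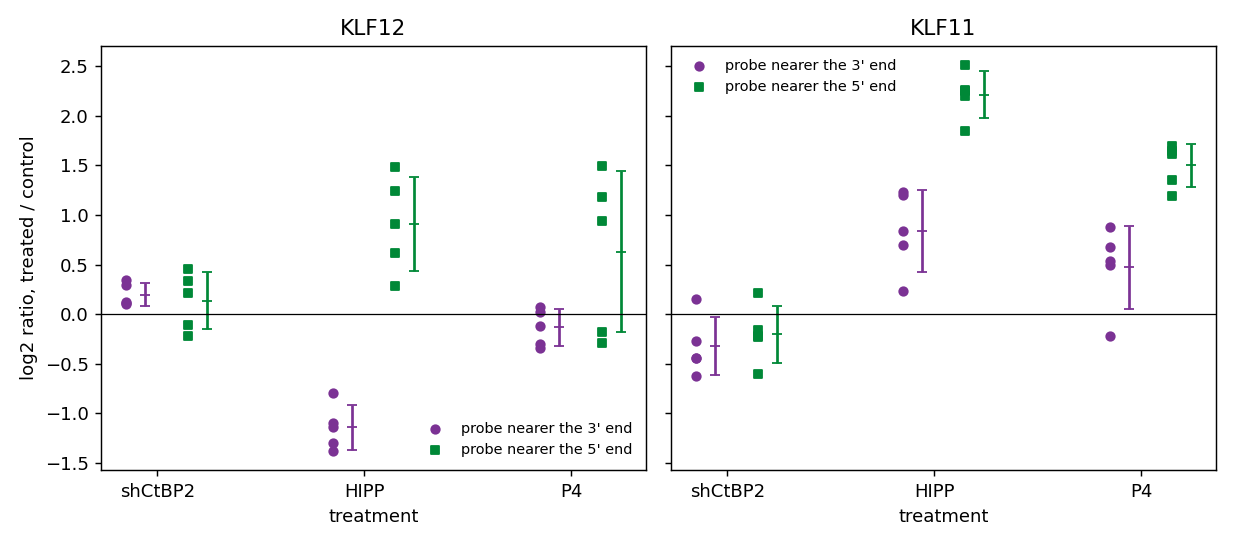
Log2 ratio of treated over control (y axis) for each of the 2 probes of KLF12 (left) and of KLF11 (right) in the 3 treatments (x axis), with 1 point per array and a bar for the mean ± SD of 5 arrays. With HIPP the KLF12 probes lie on opposite sides of 0 on all 5 arrays, whereas both KLF11 probes are above 0.

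In shCtBP2 cells the mean of the 3 CtBP-binding members exceeded that of the other 7 through KLF8 alone. The mean log2 ratio of KLF3, KLF8 and KLF12 minus that of the others was 0.66, 0.83, 1.12, 1.30 and 1.48 on the shCtBP2 arrays, a mean of 1.08 ± 0.33 (SD, n = 5). It was above 0 on all 5 arrays, and its size rests on a KLF8 control signal well above background on only 1 of them. Without KLF8, a comparison chosen after the data were seen, it was -0.09 ± 0.10 (SD, n = 5), with values from -0.22 to 0.0094. With HIPP the difference was 0.0022 ± 0.41 and without KLF8 -0.06 ± 0.37 (SD, n = 5 each). With P4 it was 0.48 ± 0.26, from 0.20 to 0.85, and without KLF8 0.26 ± 0.39 (SD, n = 5 each). With normexp and loess the differences were 0.32 for shCtBP2 and 0.12 for P4, and with uncorrected mean signals 0.25 and -0.000108. These are descriptions of 3 genes against 7 and carry no test.

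**Figure D4:**
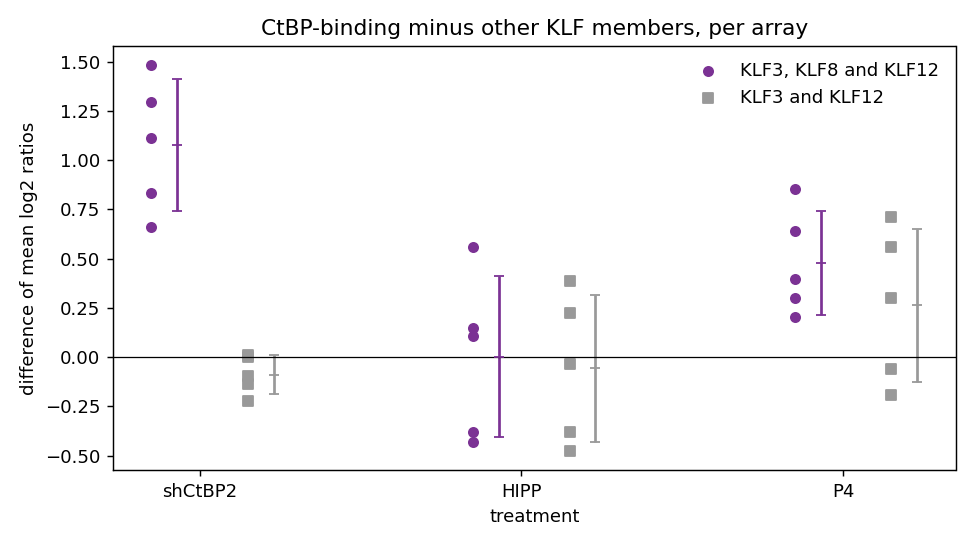
Mean log2 ratio of the CtBP-binding members minus that of the other 7 members on each array (y axis) by treatment (x axis), with all 3 CtBP-binding members and with KLF8 left out, and bars for the mean ± SD of 5 arrays. In shCtBP2 cells the 5 values lie between 0.66 and 1.48 with KLF8 and between -0.22 and 0.0094 without it, and the mean with KLF8 was 0.32 with normexp and loess in place of 1.08.

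Among the Sin3-binding members, KLF11 rose with both inhibitors. Its log2 ratios with HIPP were 1.74, 1.47, 1.70, 1.04 and 1.67, a mean of 1.52 ± 0.29 (SD, n = 5) or 2.88-fold (limma adjusted p = 2.68e-07). With P4 they were 0.48, 1.19, 1.12, 1.07 and 1.07, a mean of 0.99 ± 0.28 (SD, n = 5) or 1.98-fold (limma adjusted p = 7.38e-05). In shCtBP2 cells KLF11 was at -0.26 ± 0.27 (SD, n = 5, limma adjusted p = 0.197), with 4 of 5 arrays lower. No inhibitor array overlapped with the shCtBP2 arrays.

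The 2 KLF11 probes gave the same direction with different sizes. The probe nearer the 5′ end (hg17 chr2:10143354-10143413) had means of 2.21 ± 0.24 for HIPP and 1.497 ± 0.22 for P4 (SD, n = 5 each), and the probe nearer the 3′ end (chr2:10145244-10145303) had 0.84 ± 0.41 and 0.47 ± 0.42. All 4 means passed the adjusted threshold, with limma adjusted p of 5.55e-09 and 1.05e-06 for the first probe and 0.000612 and 0.0386 for the second. The second probe, which was the brighter, stayed under both fold thresholds, so that a call made on the brightest probe alone was lost for HIPP and for P4. It was also lost with normexp and loess, where the ratios were 0.79 for HIPP and 0.57 for P4 and still passed the adjusted threshold (limma adjusted p = 0.000192 and 0.00312).

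KLF9, which responds to glucocorticoid and thyroid hormone, and KLF10, an early TGF-beta response gene, were called in shCtBP2 cells with opposite signs and small margins. KLF9 ratios were 0.20, 0.78, 0.48, 1.15 and 0.69, a mean of 0.66 ± 0.35 (SD, n = 5, limma adjusted p = 0.0380), and all 5 arrays lay above control. KLF10 ratios were -0.60, -0.79, -0.57, -0.36 and -0.72, a mean of -0.61 ± 0.17 (SD, n = 5, limma adjusted p = 0.0171), and all 5 arrays lay below control. Both calls were fragile. KLF9 was lost without replicate 2, 3, 4 or 5 (limma adjusted p from 0.0664 to 0.151) and with the replicate number as a block (0.0502), and KLF10 without replicate 2 (0.0675) or 5 (0.0606) and with slide as a fixed block (0.382).

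Neither KLF9 nor KLF10 passed with an inhibitor. KLF9 was at 0.06 ± 0.64 with HIPP, where replicate 4 stood at -1.04 and the other 4 arrays between 0.13 and 0.61, and at 0.06 ± 0.33 with P4 (SD, n = 5 each). KLF10 was at -0.28 ± 0.36 for HIPP and 0.24 ± 0.46 for P4 (SD, n = 5 each), with limma adjusted p of 0.143 and 0.231.

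KLF6, a tumour suppressor with several splice forms, had ratios of 0.75, 0.69, 0.89, 0.38 and 1.09 with HIPP, a mean of 0.76 ± 0.26 (SD, n = 5). The limma adjusted p was 2.38e-05, and the change of 1.69-fold stayed under the threshold of 2.5. With P4 they were -0.36, -0.58, -0.40, -0.14 and -0.29, a mean of -0.35 ± 0.16 (SD, n = 5), and were not tested because of the variability filter. All 5 HIPP arrays were thus higher than control and all 5 P4 arrays lower. In shCtBP2 cells KLF6 was at 0.20 ± 0.17 (SD, n = 5, limma adjusted p = 0.219). Its 3 probes had positive means with HIPP (0.49 to 1.13) and negative means with P4 (-0.49 to -0.28), of which the lowest passed when probes were fitted singly (limma adjusted p = 0.0182).

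KLF2, a factor of endothelial and lymphocyte quiescence, passed the adjusted threshold with P4, where its ratios were 0.63, 0.24, 0.76, 0.76 and 0.61, a mean of 0.60 ± 0.22 (SD, n = 5, limma adjusted p = 0.0112). With HIPP 4 arrays lay between -0.30 and 0.09 and replicate 4 at 1.08, and the mean of 0.08 ± 0.57 (SD, n = 5) did not pass. KLF4, one of the reprogramming factors, also passed with P4, at -1.01, 0.27, -0.15, -1.22 and -1.33, a mean of -0.69 ± 0.71 (SD, n = 5, limma adjusted p = 0.0293). Here the arrays were split, with 3 at -1.01 or below and replicates 2 and 3 at 0.27 and -0.15. KLF4 no longer passed without replicate 1, 4 or 5 (limma adjusted p = 0.0766, 0.119 and 0.129), whereas without replicate 2 it was at -0.93 and was called (limma adjusted p = 0.00637), as it was with slide as a fixed block (-1.59, limma adjusted p = 0.0314). The block value lies below every P4 array. Slide 1 held P4 arrays only, so that value is tied to the other slides by the 1 P4 array on slide 2. KLF5, which promotes epithelial proliferation, stayed near control with means of -0.22 ± 0.20, -0.17 ± 0.14 and -0.12 ± 0.16 (SD, n = 5 each) for shCtBP2, HIPP and P4. Its 2 probes went apart with HIPP, at -0.56 ± 0.43 and 0.22 ± 0.38 (SD, n = 5 each), and the first passed when probes were fitted singly (limma adjusted p = 0.00304).

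The inhibitor arrays were compared with the shCtBP2 arrays by a contrast in the same limma fit, adjusted over all genes tested in both treatments. For HIPP 4 of 10 members differed from shCtBP2, where 26.3% of 24964 genes did, and for P4 4 of the 8 tested, where 12.1% of 24997 did. The log2 difference, inhibitor minus shCtBP2, was for KLF8 -3.01 with HIPP (limma adjusted p = 5.52e-05) and -2.35 with P4 (limma adjusted p = 0.00141). These sizes rest on the dim control signal of the shCtBP2 arrays. With normexp and loess they were -0.90 and -0.70 and still passed, and with uncorrected mean signals -1.13 and -0.94, where the variability filter removed KLF8 from the test. For KLF11 these differences were 1.79 (1.40 to 2.17, limma adjusted p = 6.38e-06) and 1.25 (0.86 to 1.64, limma adjusted p = 0.000473). They were 0.89 and 0.67 with normexp and loess and 1.16 and 0.80 on the brightest probe, values outside these intervals that still passed. KLF8 thus stood higher in shCtBP2 cells and KLF11 higher with the inhibitors, in both contrasts.

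KLF3 was higher with both compounds than in shCtBP2 cells, by 0.92 for HIPP (95% interval 0.59 to 1.24, limma adjusted p = 0.000443) and 0.91 for P4 (0.59 to 1.24, limma adjusted p = 0.00141). The dim KLF3 probe gave smaller differences with normexp and loess, 0.22 for each compound, which passed, and 0.13 and 0.27 on uncorrected mean signals, which did not pass or were not tested. KLF6 was higher by 0.56 with HIPP (0.25 to 0.87, limma adjusted p = 0.00937). This no longer passed on the brightest KLF6 probe (0.39) or with slide as a fixed block (0.59). The difference turned to -0.14 on uncorrected mean signals, where the medians of all genes were -0.40 with HIPP and -0.20 in shCtBP2 cells. For P4 the KLF6 difference was -0.55 (-0.86 to -0.24), which the variability filter left untested. It passed without that filter. KLF10 was higher by 0.85 with P4 (0.38 to 1.31, limma adjusted p = 0.0198), and this no longer passed (0.59) without P4 replicates 2 and 3, left out together after the data were seen. For KLF12, as the mean of both probes, the intervals ran from -0.74 to 0.17 for HIPP and -0.37 to 0.54 for P4. On its brightest probe alone the KLF12 difference for HIPP was -1.34 and passed, and that for P4 was -0.33 and did not. For KLF9, whose limma adjusted p were 0.133 and 0.191, the intervals ran from -1.19 to -0.0043 and -1.19 to -0.0061. No slide held both P4 and shCtBP2 arrays, and with slide as a fixed block the 4 P4 differences, though of the same sign (KLF3 1.24, KLF8 -1.37, KLF10 0.31, KLF11 1.26), no longer passed. On slide 3, which held HIPP and shCtBP2 together, 2 of the 4 HIPP differences passed, those of KLF3 (1.22) and KLF11 (1.82), while KLF8 was at -1.86 and KLF6 at 0.59.

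**Figure D5:**
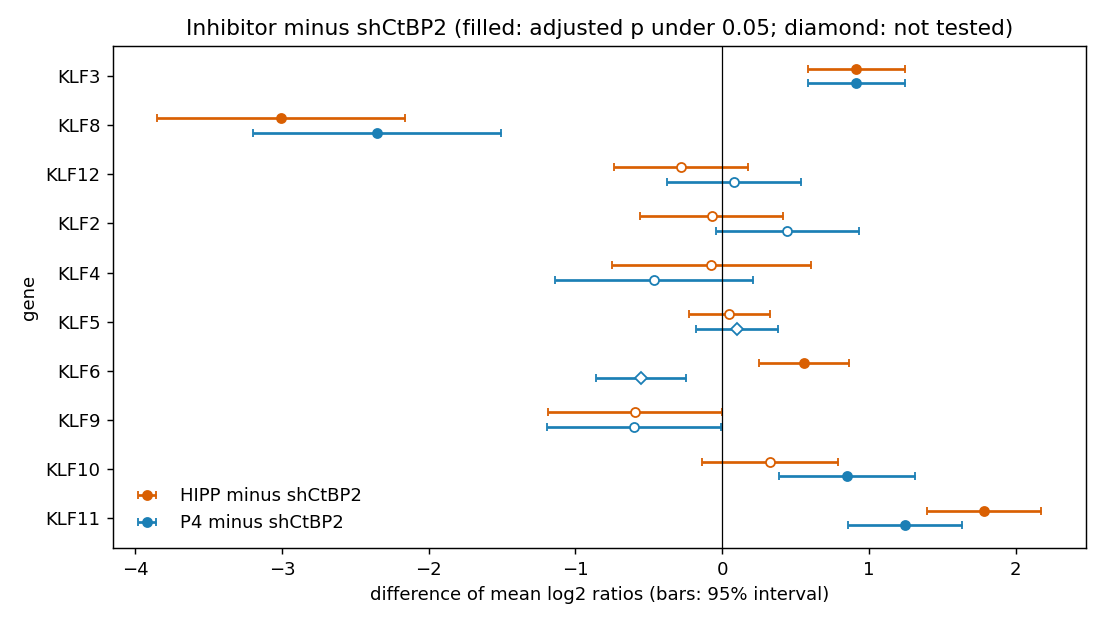
Difference between the mean log2 ratio with an inhibitor and that in shCtBP2 cells (x axis) for each KLF gene (y axis), with 95% intervals, filled symbols where the limma adjusted p was under 0.05 and diamonds where the gene was not tested. KLF8 lies at -3.01 and -2.35 (-0.90 and -0.70 with normexp and loess), while KLF3 and KLF11 lie above 0 for both compounds.

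The study's methods give different concentrations for HIPP and P4 and the array labels give none, so the values of the compounds stand side by side only. The mean log2 ratios with HIPP and with P4 were 1.52 and 0.99 for KLF11, 0.49 and 0.49 for KLF3, 0.36 and 1.01 for KLF8, and 0.76 and -0.35 for KLF6. With normexp and loess these were 0.79 and 0.57 for KLF11 and 0.16 and 0.17 for KLF3. They were -0.0023 and 0.21 for the dim KLF8 probe, and 0.59 and -0.31 for KLF6.

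The remaining KLF genes and the related SP genes, from a list written for this family, were examined for context. Of 7 other KLF genes on the array, 1 of the 6 tested was called in shCtBP2 cells, 2 of 7 with HIPP and 1 of 7 with P4, where 6.57%, 7.05% and 8.46% of all genes were. KLF7, a factor of neuronal growth, rose with HIPP to 2.37 ± 0.44 and with P4 to 1.79 ± 0.35 (SD, n = 5 each, limma adjusted p = 2.49e-08 and 1.71e-06), on 10 of 10 arrays, and was at 0.07 ± 0.20 (SD, n = 5, limma adjusted p = 0.796) in shCtBP2 cells. These were larger than the ratios of any member with the same compound. KLF15, a metabolic regulator, was called lower with HIPP (limma adjusted p = 3.24e-06), on 5 of 5 arrays. Its treated signal was above background on only 1 of them, and no size is given. The erythroid KLF1 was called lower in shCtBP2 cells (limma adjusted p = 0.0330), on 4 of 5 arrays. It was above background in the treated channel on 1 array and in the control channel on 2, and no size is given. Of 7 SP genes, factors of the same zinc finger family, 1 of the 5 tested passed the adjusted threshold in shCtBP2 cells, 5 of 7 with HIPP and 1 of 7 with P4, where 13.5%, 48.7% and 31.9% of all genes did, and these SP genes stayed under the fold thresholds. Of those passing with HIPP, 4 were higher and 1 lower, and 1 of the higher (SP7, named after its values were seen) was not well above background in either channel on any array.

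Genes reported as targets of CtBP-binding KLF proteins are given singly. The list was not split into repressed and activated targets, so no common direction was looked for. Besides KLF8 itself, LGALS3 (galectin-3) was at 0.10 ± 0.19 in the knockdown, 0.96 ± 0.23 after HIPP and 0.73 ± 0.27 after P4 (SD, n = 5 each), and passed the adjusted threshold with both inhibitors (limma adjusted p = 5.91e-06 and 0.000235). EPSTI1, an interferon-induced gene, was called lower with HIPP and with P4 (limma adjusted p = 8.44e-08 and 2.57e-05), on 10 of 10 arrays. Its treated signal was not well above background on any of these arrays, and after normexp, loess and quantile scaling of the mean intensities it was at least 1.12-fold lower with HIPP and at least 1.20-fold lower with P4. This bound sets 1 dye against the other and is open to dye bias. TFAP2A, the AP-2alpha gene repressed by KLF12, was called lower in shCtBP2 cells and with P4 (limma adjusted p = 0.00506 and 0.0206) but was not well above background in either channel on any array, and no fold is given. CDH1 was likewise below background throughout. CCND1 (cyclin D1) passed with HIPP, at 0.44 ± 0.45 (SD, n = 5, limma adjusted p = 0.0260). For shCtBP2 and P4 the variability filter removed it. MMP9 did not pass in any treatment, with means from -0.13 to -0.05.

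Among 10 other DNA-binding partners of CtBP the lowest limma adjusted p in shCtBP2 cells was 0.0732 (TGIF1, at -0.57), and 4 passed with each inhibitor, of 8 tested with HIPP and 10 with P4, where 48.7% and 31.9% of all genes did. Of these, TGIF1, a repressor in TGF-beta signalling, was called higher with P4 at 0.90 ± 0.42 (SD, n = 5, limma adjusted p = 0.00334). The median log2 ratio of the list was -0.12, 0.14 and 0.06 in the 3 treatments, beside 0.04, 0.08 and 0.11 over all genes tested.

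The genes whose ratios over the 15 arrays were nearest to each CtBP-binding member were found by the root mean square difference of log2 ratios among 17457 named genes. For KLF3 these were MTHFD2L and ADIRF, at 0.21 and 0.24. For KLF8 they were CDK20 and IL13RA2, at 1.03 and 1.05, distances that rest on KLF8 ratios whose control signal was mostly not well above background in shCtBP2 and P4. CDK20, a cyclin-dependent kinase, had means of 2.25, 0.12 and 0.16 in shCtBP2, HIPP and P4. IL13RA2, a decoy receptor for interleukin 13, had means of 3.91, 0.37 and 1.10, beside 3.36, 0.36 and 1.01 for KLF8. For KLF12 they were KIAA1191 and WRNIP1, at 0.14 and 0.18, for the mean of its 2 probes.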

How the data were processed

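Total RNA was amplified and labelled by the authors and hybridised on Agilent 2-colour arrays, 5 per treatment. Per the file headers, Agilent Feature Extraction corrected each spot's signal for background and dye, and the deposited files hold these intensities and a log10 ratio. The deposited series matrix repeats the log10 ratio. Here log2 of Cy5 over Cy3 was computed from the processed intensities. Outlier-marked spots (78 to 265 per array) were left out, and probes were averaged by current symbol (26791 of 41000 probes had one). Genes measured on at least 3 of 5 arrays were kept and the 11% with the lowest interquartile range removed, after the study's methods. One limma (version 3.58.1, R 4.3.3) fit over 15 arrays tested each treatment mean against 0 with Benjamini-Hochberg adjustment over all genes tested. The fit was tested on simulated data. The number of arrays limits the precision.

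The members and gene lists were chosen with earlier results of these data known. The genes named are all 10 members, the other KLF and CtBP-partner genes that were called, the reported targets, CTBP1 and CTBP2. Also named are the cell markers (with ZEB1), the 2 nearest genes of each CtBP-binding member, and SP7, which was not called. Alternatives covered background correction and normalization (normexp with an offset of 50 and loess, background-subtracted or mean signals, the series matrix), filters, probe choice, slide, replicate number, test, fold threshold and single arrays. Promoter windows came from RefSeq (GRCh38.p14). KLF3 and KLF10 had no entry.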

Additional observations from a re-analysis of the deposited data

Results flagged for a closer look

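With 5 arrays per treatment, 3 of 30 combinations of member and treatment had 1 array far from the rest by Dixon's test, which flags about 1 in 20 by chance. They were KLF2 in HIPP replicate 4 (log2 ratio 1.08), KLF9 in the same replicate (-1.04) and KLF11 in P4 replicate 1 (0.48). Without HIPP replicate 4 the mean of KLF2 with HIPP was -0.16 in place of 0.08, and that of KLF9 was 0.33 in place of 0.06, and neither was called with it or without it.

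The response of 5 members differed between an inhibitor and shCtBP2 cells by the limma contrast. Of all genes tested, 26.3% differed for HIPP and 12.1% for P4. The differences of log2 ratios, HIPP minus shCtBP2, were 0.92 for KLF3, 0.56 for KLF6, -3.01 for KLF8 and 1.79 for KLF11. For P4 minus shCtBP2 they were 0.91 for KLF3, -2.35 for KLF8, 0.85 for KLF10 and 1.25 for KLF11. The KLF8 values rest on a control signal that was well above background on 1 of 5 shCtBP2 arrays, and were -0.90 and -0.70 with normexp and loess. With the same correction the differences of KLF3 were 0.22 for each compound and those of KLF11 0.89 and 0.67, and on uncorrected mean signals that of KLF6 for HIPP was -0.14. KLF6 was higher than control on all 5 HIPP arrays and lower on all 5 P4 arrays, with means 1.11 apart on the log2 scale, and this difference was not tested.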

How the results depend on the processing

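The number of genes called moved by over 1.5 times with several choices. Against 1813, 1944 and 2333 genes called for shCtBP2, HIPP and P4, normexp with loess called 269, 280 and 585, mean signals 263 for shCtBP2 and 583 for P4, and the methods' t-test 969 for shCtBP2 and 891 for P4 (1836 and 1969 before adjustment). Without a fold threshold 3734, 13444 and 8800 were called, and with 1.5-fold throughout 8976 for HIPP and 4831 for P4. On mean signals the median of all genes moved to -0.20, -0.40 and -0.25, and 30.4%, 2.54% and 35.2% of calls were higher, in place of 50.9%, 48.7% and 50.8%. With centred background-subtracted signals 39.5% of the P4 calls were higher.

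Of the 3 members called in shCtBP2 cells, 1 was called with normexp, mean signals, the slide block and the methods' t-test, and 0 on the 2 arrays of slide 3. Leaving out single arrays gave 1 to 3, with 1 without replicate 2 or 5. For HIPP the 1 member called became 0 with normexp, mean signals, the brightest probe or 1 fit per probe. The count became 2 at 1.5-fold and 3 with no fold threshold. Fitted singly, the KLF11 probe nearer the 5′ end was still called with HIPP and with P4. The gene was not counted there because its other probe was not called. For P4 the 2 members became 0 with normexp, mean signals or on slide 2, whose lone P4 array is assumed to vary like the HIPP arrays there (KLF11 1.07 and KLF8 0.77), 1 with background-subtracted signals, the brightest probe, 1 fit per probe or the methods' t-test, 4 at 1.5-fold and 5 with no fold threshold. Members differing from shCtBP2 fell from 4 to 1 for each compound with background-subtracted signals, where the variability filter removed KLF3, KLF8 and KLF11 from the test and KLF6 passed, so that for P4 none of the 4 reported remained (KLF10 at 0.81 did not pass), to 0 for each with mean signals, to 2 for HIPP within slide 3 and to 0 for P4 with the slide block. No slide held both P4 and shCtBP2, so no within-slide value exists for that pair. The CtBP-binding minus other difference was 0.32 with normexp, 0.25 with mean signals and -0.089 without KLF8 for shCtBP2, and 0.12 and -0.000108 for P4 with the first 2 of these settings.

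Some member ratios changed sign, and among these the largest as reported was KLF8 with P4 (1.01). With the slide block these were KLF2 (-0.23), KLF4 (0.47) and KLF12 (-0.20) in shCtBP2 cells, and KLF9 (-0.43) and KLF10 (-0.076) with P4. With mean signals they were KLF2 (-0.49), KLF3 (-0.19), KLF8 (-0.28) and KLF9 (-0.53) with HIPP, and KLF3 (-0.047), KLF8 (-0.10), KLF9 (-0.076) and KLF12 (-0.055) with P4. Relative to the median of all genes under mean signals, KLF2 (-0.09) and KLF9 (-0.13) with HIPP were still below 0, and the other 6 were above it, by 0.11 to 0.20. Within slide 2 they were KLF2 (-0.15) and KLF4 (0.0038) with HIPP and KLF9 (-0.13) with P4, and within slide 3 KLF9 (-0.45) and KLF12 (0.15) with HIPP. KLF8 with HIPP was -0.0023 with normexp, KLF9 with HIPP -0.016 with background-subtracted signals, and KLF12 with P4 -0.13 for the brightest probe. Without single arrays, KLF2 with HIPP ranged from -0.16 to 0.18, KLF9 with HIPP from -0.078 to 0.33 and KLF9 with P4 from -0.078 to 0.12. Leaving out P4 replicates 2 and 3 together was tried after their KLF4 and KLF12 values were seen and is no independent check. It gave KLF9 at -0.15 and KLF10 at -0.018. KLF8 was no longer called (0.83, limma adjusted p = 0.125) and KLF4 was (-1.19, limma adjusted p = 0.00173). Of the differences from shCtBP2, that of KLF10 (0.59) no longer passed and that of KLF4 (-0.96) did. The causes were not tested.

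The labels do not say that replicate numbers pair the arrays, and they were not treated as pairs, because 13 and not all of 15 same-numbered pairs correlated over 0.1 (range -0.03 to 0.47). In 13 of 30 comparisons an array was closest to its own number, where 1 in 5 would be by chance, so some pairing is possible. With the number as a block 2222, 1943 and 2429 genes were called, and KLF9 in shCtBP2 cells missed the threshold (limma adjusted p = 0.0502). Dim signals limited KLF3 and KLF8.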
